A study of Rattus norvegicus with 6 samples.

Results

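Osteoblasts, the cells that lay down bone, are made from mesenchymal precursors under a small set of transcription factors, and 5 genes of that set, Runx2, Sp7, Dlx3, Dlx5 and Dlx6, were followed in rat skull defects treated with a CGG or a CGG-Cit hydrogel. They were taken from the 34045 genes of the deposited expression table by symbol: 4 of the 5 matched a row of that name. The remaining gene, Dlx6, stood under the name AABR07059679.1, in a row that the table describes as distal-less homeobox 6 with the NCBI gene number 500023, which the RefSeq gene table calls Dlx6. It is written here as the Dlx6 row. All 6 libraries came from male, wild type Sprague-Dawley rats, an outbred albino stock, and from tissue cut out of calvarial (skull roof) defects at week 4 after surgery. In 3 libraries (CGG 1 to 3) the defect had received the CGG hydrogel and in 3 (CGG-Cit 1 to 3) the CGG-Cit hydrogel, names that the labels do not spell out. Age is not given in the sources used here, no unfilled defect or intact bone was analysed, and no label says whether the libraries of a group came from separate rats, and the p-values below rest on library-to-library spread alone, biological or technical. The series title ties the gels to a metabolite of the tricarboxylic acid cycle and to bone formation.

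Runx2 encodes a runt domain factor that commits precursors to the osteoblast lineage and binds DNA together with the partner protein CBFB. Sp7 encodes osterix, a zinc finger factor that acts downstream of Runx2 and without which no bone matrix is laid down. Dlx3, Dlx5 and Dlx6 encode homeodomain factors that lie in neighbouring gene pairs (Dlx3 with Dlx4, Dlx5 with Dlx6), respond to bone morphogenetic proteins (BMPs), and act on genes such as Runx2, Sp7 and those of the mineralised matrix. The bones of the skull roof form directly from mesenchyme, without a cartilage model.

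In the CGG-Cit defects Sp7 and Dlx3 were lower, each at less than 50% of its CGG level (44.5% for Sp7 and 46.5% for Dlx3). Dlx5 was also below every CGG library in all CGG-Cit libraries, at 52.3% of the CGG mean, without passing the test over all genes. The Dlx6 row, at 51.5%, did not pass and its groups overlapped. Runx2 stood at 84.5% of its CGG mean, with overlapping groups. Of the 5 factors, 2 fell and 0 rose at an adjusted p under 0.05 with limma, where 9.78% of the 15965 genes tested fell (7.75% rose). In 3 of the 5 every CGG-Cit value lay under every CGG value, which held for 22.1% of the genes tested (19.6% lay wholly above). The median log2 fold change of the 5 was -0.93, beside 0.00 for all genes tested. All 5 passed the filter on low values, a mean of at least 0.5 FPKM (fragments scaled by gene length and library size, the deposited unit). A negative fold change means lower in CGG-Cit; all are differences of mean log2(FPKM + 1), a scale on which changes of weakly expressed genes come out too small. In pieces of whole tissue, fewer cells of a type and less RNA per cell cannot be told apart.

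**Figure D1:**
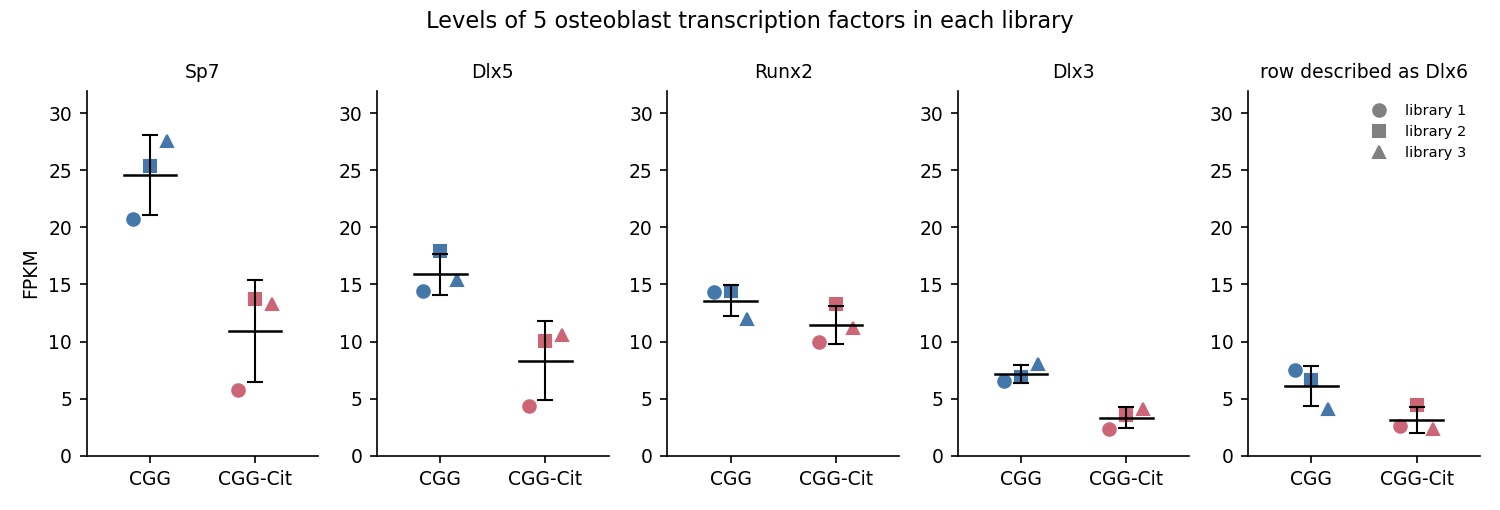
FPKM (y axis, from 0) of the 5 factors in the 3 CGG (blue) and 3 CGG-Cit (red) libraries, with the mean as a line and the SD as bars; the marker gives the library number. Sp7, Dlx5 and Dlx3 show no overlap between the groups, while Runx2 and the Dlx6 row do.

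Depth was even over the 6 libraries. Whole reads could be recovered from FPKM and the gene lengths in the table (100% of the values above 0 came out whole, within 0.01 reads) and summed to 14744207 to 16224920 per library. Behind each value stood 861 to 1292 reads for Runx2, 143 to 682 for Sp7, 92 to 389 for Dlx5, 95 to 321 for Dlx3 and 21 to 63 for the Dlx6 row. Across genes, libraries correlated at 0.971 to 0.972 within CGG, 0.959 to 0.97 within CGG-Cit and 0.908 to 0.95 between the groups. Products of mature osteoblasts were abundant in every library, Bglap (osteocalcin) at 611 FPKM or more and Col1a1 (the main chain of bone collagen) at 3401 or more.

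Runx2 (ENSRNOG00000020193, listed at chromosome 9, 18564927 to 18773092, plus strand) was the steadiest of the 5. It was read at 14.4, 14.4 and 12.0 FPKM in CGG 1, 2 and 3 and at 9.99, 13.3 and 11.2 in CGG-Cit 1, 2 and 3. CGG-Cit 2 lay above CGG 3, and the highest library exceeded the lowest 1.44-fold. The means were 13.6 ± 1.37 and 11.5 ± 1.66 FPKM (SD, n = 3 each), a log2 fold change of -0.23 ± 0.13 (SE; 95% interval -0.55 to 0.09; adjusted p = 0.263). The interval therefore holds no change as well as a decrease of up to 0.55. The TPM scale shifted the all-gene median to 0.16, and Runx2 stood at -0.07 on it.

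Runx2 has a distal and a proximal promoter, each the start of its own isoform, and gene-level FPKM adds them up. RefSeq's rat promoter table (build GRCr8, 250 bases before to 50 after a start) holds both starts, 78182 bases apart, and of the 5 factors it holds Runx2 alone. They are shown because Runx2 binds the short sequence ACCACA (reverse complement TGTGGT). That sequence is found at the distal start of Runx2 itself and at the starts of product genes named further on. The capitals mark ACCACA, the homeodomain core TAATT and the GC box GGGCGG, searched on both strands. Positions count from 1 at the annotated start, with no position 0.

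Runx2 distal start, chr9:23664808-23665057, plus strand, the 250 bases before the start: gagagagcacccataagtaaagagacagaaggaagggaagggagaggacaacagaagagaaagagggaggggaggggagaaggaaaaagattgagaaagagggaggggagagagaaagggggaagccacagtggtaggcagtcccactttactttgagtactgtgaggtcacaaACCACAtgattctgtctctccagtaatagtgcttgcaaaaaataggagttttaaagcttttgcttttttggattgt

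Runx2 distal start, chr9:23665078-23665107, plus strand, bases 21 to 50: acaaacaACCACAgaACCACAagtgcggtg

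Runx2 proximal start, chr9:23742990-23743239, plus strand, the 250 bases before the start: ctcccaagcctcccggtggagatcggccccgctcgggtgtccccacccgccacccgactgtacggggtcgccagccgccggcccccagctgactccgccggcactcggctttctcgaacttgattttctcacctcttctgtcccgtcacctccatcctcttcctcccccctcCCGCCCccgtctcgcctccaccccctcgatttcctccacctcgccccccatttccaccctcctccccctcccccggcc

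The window of the distal start held ACCACA 3 times, beginning at positions -76, 28 and 36. Of 33469 rat windows of 300 bases, 17.3% held the motif at least 1 time and 70 (0.209%) at least 3 times. The window of the proximal start held no ACCACA and 1 GC box, at position -78; 33.1% of windows held a GC box. A match describes letters and not binding.

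Sp7 (ENSRNOG00000014082, listed at chromosome 7, 143958858 to 143967484, minus strand) was the highest of the 5 in CGG and showed the largest change among them. It was read at 20.7, 25.4 and 27.6 FPKM in CGG 1, 2 and 3 and at 5.76, 13.8 and 13.3 in CGG-Cit 1, 2 and 3. All CGG-Cit libraries lay below all CGG libraries, and CGG-Cit 1 lay well under the other two. The means were 24.6 ± 3.5 and 10.9 ± 4.49 FPKM (SD, n = 3 each), a 2.25-fold difference. The log2 fold change was -1.17 ± 0.31 (SE; 95% interval -1.91 to -0.44; adjusted p = 0.0453). The call ended after rescaling to TPM (-1.04; adjusted p = 0.0551), with no filter on low values (0.0748), and without CGG 1, CGG 2, CGG 3 or CGG-Cit 2 (0.0786 to 0.14). It held without CGG-Cit 1, the lowest library, at -0.81 (adjusted p = 0.0394).

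Dlx3 (ENSRNOG00000004278, listed at chromosome 10, 82937971 to 82943348, plus strand) had the smallest standard error of the 4 factors other than Runx2. It was read at 6.57, 6.92 and 8.04 FPKM in CGG 1, 2 and 3 and at 2.37, 3.53 and 4.11 in CGG-Cit 1, 2 and 3. The groups were apart by more than the spread within either, with CGG-Cit 1 again lowest. The means were 7.18 ± 0.77 and 3.34 ± 0.89 FPKM (SD, n = 3 each), a 2.15-fold difference, and Dlx3 fell by 0.93 ± 0.18 (SE; 95% interval -1.36 to -0.50; adjusted p = 0.0219). Dlx3 passed in all 10 other settings that kept the 6 libraries, with adjusted p up to 0.0416. It did not pass without CGG 1, CGG 2, CGG 3 or CGG-Cit 2 (adjusted p = 0.0534 to 0.0821). Its neighbour Dlx4, 15176 bases away on the other strand, was near the limit of reading, at 0.0366 to 0.785 FPKM, and was not tested.

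Dlx5 (ENSRNOG00000010905, listed at chromosome 4, 32387741 to 32392007, minus strand) was read at 14.4, 17.9 and 15.4 FPKM in CGG 1, 2 and 3 and at 4.33, 10.02 and 10.6 in CGG-Cit 1, 2 and 3. The groups did not overlap, and CGG-Cit 1 had less than 50% of the level of either other CGG-Cit library. The means were 15.9 ± 1.80 and 8.31 ± 3.46 FPKM (SD, n = 3 each), a log2 fold change of -0.94 ± 0.30 (SE; 95% interval -1.65 to -0.22; adjusted p = 0.0758). Dlx5 passed in 0 of 16 alternative fits (unadjusted p = 0.0178 with all libraries; adjusted p = 0.0576 with voom on the recovered reads). Without CGG-Cit 1 the difference was -0.57 (adjusted p = 0.0538).

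The Dlx6 row (ENSRNOG00000010822, listed at chromosome 4, 32373641 to 32377253, plus strand) lies 10487 bases from Dlx5. It was read at 7.48, 6.66 and 4.11 FPKM in CGG 1, 2 and 3 and at 2.60, 4.42 and 2.37 in CGG-Cit 1, 2 and 3. CGG-Cit 2 lay above CGG 3, and here CGG-Cit 3 was the lowest library. The means were 6.08 ± 1.76 and 3.13 ± 1.12 FPKM (SD, n = 3 each), a log2 fold change of -0.78 ± 0.26 (SE; 95% interval -1.40 to -0.16; adjusted p = 0.0841). It passed in 0 of 16 alternative fits. The table gives this gene a length of 528 bases, the shortest of the 5. Whether untranslated parts are counted in it is not given in the sources used here, so its level may not be comparable with the others. An antisense gene, AABR07059679.2, spans it at 0.0817 to 0.24 FPKM over 4004 bases, and as the strand setting is not given in the sources used here, reads of the 2 genes cannot be told apart.

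**Figure D2:**
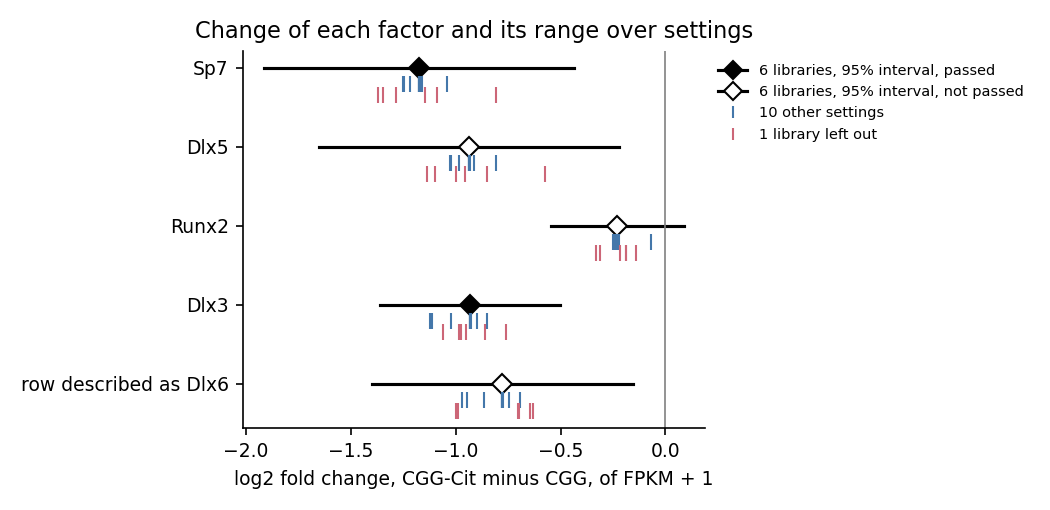
Log2 fold change of FPKM + 1, CGG-Cit minus CGG (x axis), for the 5 factors: diamonds with 95% intervals from all 6 libraries, filled where the adjusted p was under 0.05; blue ticks, 10 other settings; red ticks, 6 fits with 1 library left out. Sp7 (-1.17) and Dlx3 (-0.93) are filled, and every tick of every factor lies below 0.

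The order of the levels differed between the groups. In CGG it ran Sp7, Dlx5, Runx2, Dlx3 and the Dlx6 row, per length of gene. The first 3 steps held in 3 of 3 libraries with ranges that did not overlap, while Dlx3 and the Dlx6 row overlapped. The step from Dlx5 to Runx2 was very narrow, with a lowest Dlx5 value of 14.43 FPKM against a highest Runx2 value of 14.40. In CGG-Cit the mean order was Runx2, Sp7, Dlx5, Dlx3 and the Dlx6 row. Runx2 exceeded Sp7 in 1 of 3 CGG-Cit libraries only (CGG-Cit 1), and the ranges of Runx2 and Sp7, of Sp7 and Dlx5, and of Dlx3 and the Dlx6 row overlapped. The step from Dlx5 to Dlx3 did not.

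Whether the factors changed unequally was tested on their ratios inside each library, log2 of FPKM + 1 of a factor minus that of another, over all 10 pairs. With 3 libraries against 3, the exact two-sided permutation test cannot give a p below 0.1, so no pair could pass. Runx2 relative to Sp7 stood at -0.50, -0.78 and -1.14 in CGG 1, 2 and 3 and at 0.70, -0.05 and -0.23 in CGG-Cit 1, 2 and 3, a difference of 0.94 without overlap. Runx2 relative to Dlx5, Dlx3 and the Dlx6 row differed by 0.71, 0.70 and 0.55, also without overlap (exact permutation p = 0.1 for each of the 4 pairs with Runx2, and 0.2 adjusted over the 10 pairs). Sp7 relative to Dlx5 differed by -0.24, without overlap and with the same p. The 4 pairs with Runx2 share its values and are not independent, and how often other gene pairs lack overlap was not examined. The other 5 pairs overlapped, with exact permutation p of 0.4 to 1. Dlx3 relative to Dlx5 differed by 0.00, from -1.05 ± 0.20 in CGG to -1.04 ± 0.33 in CGG-Cit (SD, n = 3).

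The genes whose profile over the 6 libraries was most like that of each factor were ranked by the root mean square difference between log2(FPKM + 1) values, each gene centred on its own mean, among 12684 named protein-coding genes (12685 for the Dlx6 row). The 6 libraries hold 2 treatment groups and every gene shares their scaling, so the rank is a description. Nearest to Sp7 were Ibsp (bone sialoprotein, a matrix protein of mineralising osteoblasts) at 0.06 and Slc36a2 (an amino acid transporter) at 0.10. Dlx5 ranked 9 and Dlx3 ranked 40 from Sp7, whereas Runx2 ranked 2388. Nearest to Dlx5 were Pth1r (the receptor of parathyroid hormone on osteoblasts) at 0.07, Mmp9 (a gelatinase of osteoclasts and neutrophils) at 0.10 and Vdr (the vitamin D receptor) at 0.11. Nearest to Dlx3 were Slc43a3, Cdh2 (N-cadherin) and Art4 at 0.08 each, with Alpl (the alkaline phosphatase of mineralising cells) at rank 8. Nearest to Runx2 were Lrtomt at 0.04, Sfi1 at 0.05 and Rhobtb3 at 0.05, and nearest to the Dlx6 row were Izumo4 at 0.17, Tmem154 at 0.20 and Hist1h2af at 0.21.

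Ibsp was read at 318, 374 and 391 FPKM in CGG 1, 2 and 3 and at 100.5, 199.9 and 190.4 in CGG-Cit 1, 2 and 3, which is 14.2 to 17.4 times Sp7 over the 6 libraries. Bglap, at 2666, 2968 and 3384 FPKM in CGG and 611, 1547 and 1552 in CGG-Cit 1, 2 and 3, was 106 to 129 times Sp7. Both ratios varied at most 1.23-fold between libraries, while Sp7 itself varied 4.79-fold and Bglap 5.54-fold. The ratio of Bglap to Sp7 was 116.98 to 128.62 in CGG and 106.01 to 116.82 in CGG-Cit, narrowly without overlap. The ratio of Ibsp to Sp7 overlapped between the groups. Such ratios do not depend on how a library is scaled.

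**Figure D3:**
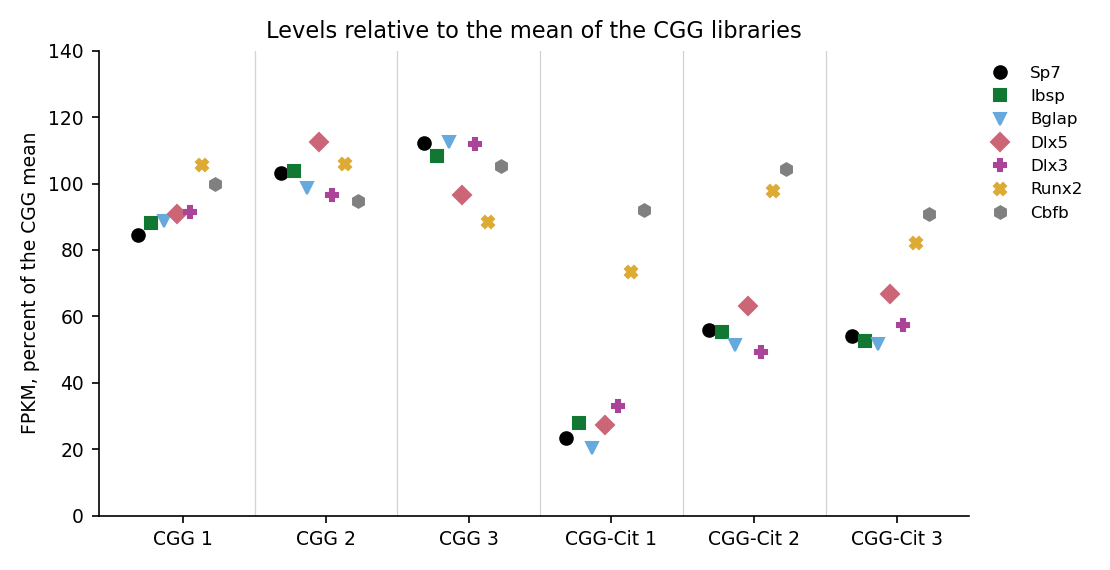
FPKM of each gene as a percentage of its mean in CGG (y axis, from 0) in each of the 6 libraries (x axis). In CGG-Cit 1, Sp7, Ibsp, Bglap, Dlx5 and Dlx3 lie at 20.3% to 33.0% while Runx2 is at 73.5% and Cbfb at 92.1%; in CGG-Cit 2 and 3 the first 5 lie at 49.2% to 66.6%.

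The same ratio was taken for all 15 tested osteoblast products over each factor. Its highest value exceeded its lowest by a median of 1.66-fold over Sp7, 1.70-fold over Dlx3, 2.10-fold over Dlx5, 2.60-fold over Runx2 and 2.89-fold over the Dlx6 row, whose low read numbers add counting error. Of the 15 products 8 were among the 100 genes nearest to Sp7, out of 12684 ranked (Ibsp, Ifitm5, Bglap, Pth1r, Col22a1, Alpl, Smpd3 and Panx3). That number was 7 for Dlx5, 2 for Dlx3 (Alpl and Mmp13) and 0 for Runx2 and the Dlx6 row. A rank stands for an unlike difference from factor to factor, so these numbers cannot be compared between factors. Panx3 ranked 37 from Sp7 and Pth1r ranked 631 from Dlx3, each at a root mean square difference of 0.25. Cdh11 ranked 401 from Runx2 at 0.13. The ranks reflect in part the difference between the groups that these genes share, so the counts are a description. Not every product followed Sp7. Cdh11, an adhesion protein of mesenchymal cells, varied 4.71-fold relative to Sp7 and 1.33-fold relative to Runx2. Spp1 (osteopontin, also made by macrophages and osteoclasts) was 78.7 to 87.8 times Sp7 in CGG and 147 to 198 times Sp7 in CGG-Cit.

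The promoters of Ibsp and Bglap are shown as the matrix genes that ran closest to Sp7 over the libraries. RefSeq's table held windows for 12 of the 17 listed osteoblast products.

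Bglap, chr2:176137319-176137568, minus strand, the 250 bases before the start: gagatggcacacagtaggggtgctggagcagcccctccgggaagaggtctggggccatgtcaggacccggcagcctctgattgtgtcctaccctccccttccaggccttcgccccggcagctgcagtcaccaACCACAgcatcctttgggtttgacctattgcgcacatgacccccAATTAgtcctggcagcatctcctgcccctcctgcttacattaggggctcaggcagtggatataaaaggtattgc

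Ibsp, chr14:5757243-5757492, minus strand, the 250 bases before the start: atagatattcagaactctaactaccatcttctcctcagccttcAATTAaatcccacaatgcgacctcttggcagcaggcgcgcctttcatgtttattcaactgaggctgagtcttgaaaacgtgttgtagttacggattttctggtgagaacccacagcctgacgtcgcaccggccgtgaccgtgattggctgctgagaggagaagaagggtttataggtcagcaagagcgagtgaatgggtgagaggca

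Bglap held ACCACA at position -118 and, on the other strand, TAATT at -74, the Runx and homeodomain motifs as for the Runx2 windows above. Ibsp held TAATT on the other strand at -207 and no ACCACA. Among the 12 product windows, those of Sparc (at -205) and Mmp13 (at -149) also held ACCACA, which 17.3% of all windows held. The homeodomain core occurred in 28.5% of the 33469 windows.

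Of the osteoblast products, 6 of the 15 tested (17 listed) fell and 0 rose, against 9.78% of all genes falling; their median was -0.92 on the log2 scale. The 6 were Bglap (-1.40), Col22a1 (-1.43), Ibsp (-1.20), Alpl (-0.97), Mmp13 (a collagenase, -0.94) and Phospho1 (a phosphatase of matrix vesicles, -0.91). Col1a1 averaged 7111 ± 1618 and 4515 ± 985.5 FPKM (SD, n = 3) without passing (adjusted p = 0.138). Without CGG 3 or without CGG-Cit 2 the number falling was 1, without CGG 2 it was 2, without CGG 1 it was 3, and with no filter it was 4. Of 7 osteocyte products, genes of the cells buried in bone, 0 passed with limma (before adjustment 4 had p under 0.05, and voom called 2), with a median of -0.74. Dmp1 stood at -1.16, Mepe at -0.95, Phex at -0.79 and Irx5 at -0.59. The groups overlapped for Fgf23 (-0.74), Sost (-0.49) and Pdpn, which went the other way (0.20).

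Among 12 tested partners and activators of the factors, Lef1, a nuclear effector of Wnt signals, fell by 0.56 ± 0.15 (SE; adjusted p = 0.0498) and Wwtr1, the coactivator TAZ, rose by 0.52 ± 0.12 (0.033). The median of the 12 was 0.18. Cbfb, the DNA-binding partner of Runx2, was read at 43.0, 40.8 and 45.4 FPKM in CGG and 39.6, 44.9 and 39.1 in CGG-Cit, above Runx2 per length in all libraries. Its groups overlapped (log2 fold change -0.06, from -0.12 to 0.11 over the alternatives; adjusted p = 0.665). Tcf7 stood at 0.59 (adjusted p = 0.0752) and Msx2 was low, at 0.133 to 1.72 FPKM. Wwtr1 did not pass without CGG 1, CGG 3 or any CGG-Cit library, nor with the replicate block (adjusted p up to 0.111). The same held for Lef1, which also missed with no filter, with robust variances and on each other scaling (adjusted p up to 0.15).

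Among 12 factors known to hold back Runx2 or the osteoblast fate, 4 rose and 0 fell, against 7.75% of all genes rising, with a median of 0.38. Twist2, a repressor that binds Runx proteins, was read at 1.17, 0.595 and 1.17 FPKM in CGG and 4.04, 2.08 and 3.78 in CGG-Cit, and rose by 1.10 ± 0.24 (SE; adjusted p = 0.0284). Pparg, the master factor of fat cells, rose by 0.87 (0.0155), Msx1, a homeodomain repressor, by 0.88 (0.031) and Smurf1, an E3 ligase that marks Runx2 and Smad proteins for breakdown, by 0.42 (0.0309). Twist1 did not pass, at 34.2 ± 2.53 and 33.6 ± 4.91 FPKM (SD, n = 3; log2 fold change -0.03, from -0.13 to 0.14 over the alternatives). Pparg passed in 15 of 16 alternative fits, failing without CGG-Cit 2 (adjusted p = 0.0619). The number rising was 1 without any 1 of CGG-Cit 1, CGG-Cit 2, CGG 2 and CGG 3, and 2 without CGG 1.

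Of 18 tested upstream genes, ligands and receptors of BMP, Wnt and fibroblast growth factor signals with their Smads, 3 rose and 0 fell, where 7.75% of all genes tested rose and 9.78% fell (median 0.15). Bmp6 was read at 27.4, 8.87 and 15.7 FPKM in CGG and 56.7, 46.7 and 34.8 in CGG-Cit (1.46 ± 0.38; adjusted p = 0.0441), Bmpr2, a BMP receptor, rose by 0.59 (0.0288) and Lrp6, a Wnt co-receptor, by 0.80 (0.0439). Fgf18, a growth factor of skull bones, stood at 0.80 (adjusted p = 0.0517) and Bmp2 at -0.48 (0.11). The number rising was 0 without any 1 of CGG-Cit 1, CGG-Cit 2, CGG 2 and CGG 3, 1 with no filter, 1 with the replicate block and 5 on the TPM scale.

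The relatives of the factors that could be tested did not pass, and no Dlx relative was among them. Of 13 Runx, Sp and Dlx relatives 6 were tested and 0 passed with limma (before adjustment 1 had p under 0.05, and voom called 0). Runx1, the blood-forming runt factor, averaged 17.1 ± 2.10 and 17.1 ± 0.67 FPKM (SD, n = 3), more than Runx2. Sp1, Sp2, Sp3 and Sp4 stood at -0.12, -0.33, -0.10 and -0.34, with alternatives that reached 0.05 for Sp1 and 0.07 for Sp3. Dlx1 and Dlx2, the pair found in forebrain and jaw, stood at 0.329 FPKM or less.

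**Figure D4:**
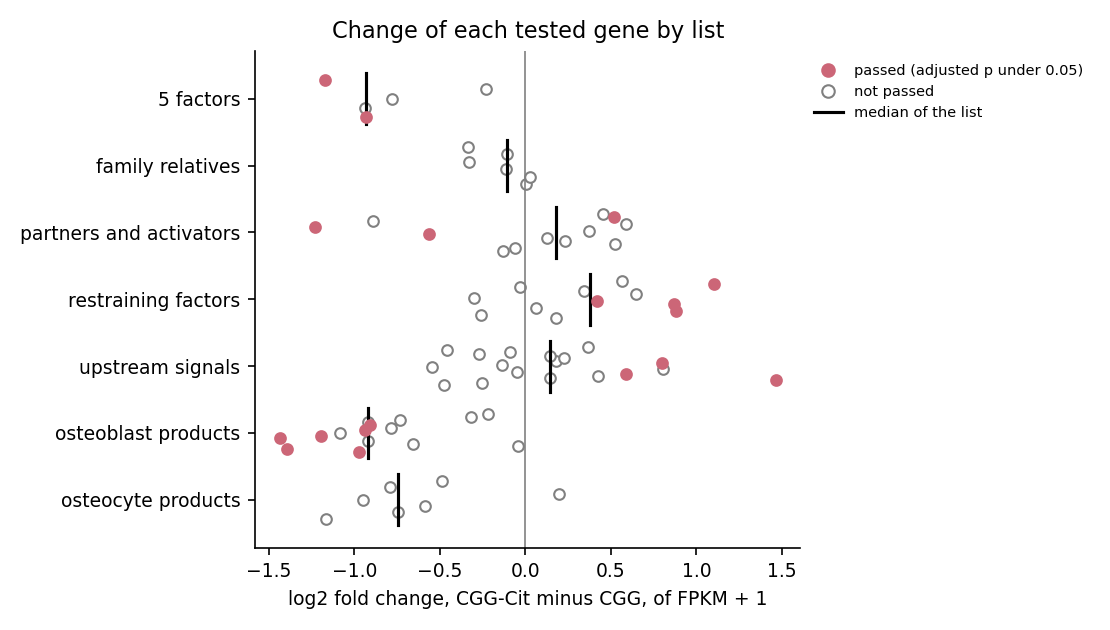
Log2 fold change of FPKM + 1, CGG-Cit minus CGG (x axis), of every tested gene in 7 groups of genes (y axis); filled points had an adjusted p under 0.05 and the bar is the median of the group. The medians are -0.93 for the 5 factors, -0.92 for osteoblast products and -0.74 for osteocyte products, against 0.38 for the restraining factors.

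Other cell types moved between the same libraries, where 9.78% of all genes tested fell and 7.75% rose. Of 6 skeletal muscle markers 6 fell, with a summed level of 5324 to 7093 FPKM in CGG and 36.7 to 279 in CGG-Cit, and of 7 tested neutrophil markers 7 fell (14385 to 16348 against 2301 to 5959). Of 8 macrophage markers 7 rose (757 to 830 against 1356 to 2020), as did 6 of 8 fibroblast markers (831 to 1399 against 1722 to 2028) and 3 of 6 meningeal markers (29.1 to 305 against 171 to 1688). CGG-Cit 1, the lowest library of Sp7, Dlx3, Dlx5 and Runx2 within its group, had the highest meningeal sum and was between the others for the muscle and neutrophil sums. Their part in the lower levels of Sp7 and Dlx3 was not tested.

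Markers of other cells that also use these factors were read at unequal levels. Of 8 cartilage markers, Col10a1 (the collagen of hypertrophic chondrocytes), Col9a1 and Matn1 stood at 0.729 FPKM or less, Col2a1 at 0.202 to 3.21 and Sox9 at 0.306 to 1.27. Acan stood at 3.66 to 7.53 and Comp at 1.87 to 7.57, and 0 of 5 tested passed with limma (before adjustment 1 had p under 0.05, and voom called 1). The cartilage sum was 44.7 to 77.2 FPKM in CGG against 21.5 to 40.4 in CGG-Cit, of which Col11a2 gave 33.0 to 70.2 and 9.78 to 23.9. For epidermis, where Dlx3 is active, Krt14 was at 0 in all libraries, Krt5 at 0.0818 FPKM or less and Krt1 at 0.391 or less, while Krt10 stood at 0.647 to 1.44 and Dsg3 at 2.61 to 8.73, a range that covers most of that of Dlx3 (0 of 2 tested passed with limma, 0 of them before adjustment and 0 with voom; sums 5.36 to 7.95 against 3.96 to 10.5). For forebrain interneurons, which use Dlx5 and Dlx6, Gad1 and Gad2 stood at 0.101 FPKM or less and Lhx6 at 0.167 to 1.87. Of 2 tested Slc32a1 fell (-0.93), against 9.78% of all genes falling, and Lhx6 did not pass. The sums were 2.62 to 4.61 against 1.42 to 2.54. The part of these cells in the levels of the factors was not tested.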

How the data were processed

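RNA sequencing of 3 CGG and 3 CGG-Cit libraries was used, with groups and replicate numbers from the sample titles. The authors deposited FPKM for 34045 genes with gene lengths and coordinates. The submitters' processing notes name the build mRatBN7.2 and, without role or order, DESeq2 1.20.0, featureCounts 1.5.0-p3 and HISAT2 2.0.5. The last gene on chromosome 1 ends at 282724300, past the 270492571 of the GRCr8 gene table, so coordinates are given as listed, with no build. The annotation release is not given in the sources used here, nor is the strand setting.

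Tests used limma 3.58.1 in R 4.3.3 (lmFit, then eBayes with trend; no block) on log2(FPKM + 1). They covered the 15965 genes averaging 0.5 FPKM or more, Benjamini-Hochberg adjusted over all of them, threshold 0.05. The fit was tested on simulated data. Ratios, profile ranks and promoter counts used Python 3.11.15 with pandas 2.3.3 and scipy 1.17.1. Of 139 symbols in 14 lists, 136 matched, and Trp63, Myh4 and Atp2a1 were not analysed here.

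The factors and lists were chosen with earlier results of these data known. Named genes were the 5 factors, up to 4 genes of each list with the smallest p, 9 fixed by name, the 3 genes most like each factor, and overlapping genes. The values of 1 gene of this rule are not reported here. Other genes named, the ratios to Sp7 and the ratios of the products were chosen after values were seen. Alternatives were pseudocounts of 0.1 or 0.5, no filter or one at 2 FPKM, median-of-ratios, TPM and quantile scaling, robust variances, the replicate number as a block, voom on recovered reads, and each library left out.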

Additional observations from a re-analysis of the deposited data

How the results depend on the processing

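Without a library, the number of genes lower lay between 190 and 1622 and the number higher between 122 and 1312, against 1561 and 1237 with all. TPM scaling gave 948 lower and 2203 higher (69.9% higher, against 44.2%). Sp7 kept its direction but no longer passed with no filter (-1.17; adjusted p = 0.0748) and on the TPM scale (-1.04; 0.0551), and lay between -1.37 and -0.81 without a library. Dlx3 lay between -1.06 and -0.76. The Sp7 call ended only where CGG 1, CGG 2, CGG 3 or CGG-Cit 2 was left out, the gene set grew, or TPM was used. The Dlx3 call ended only where CGG 1, CGG 2, CGG 3 or CGG-Cit 2 was left out. Both calls held without CGG-Cit 1 and without CGG-Cit 3. The causes of these losses and of the TPM shift were not tested. Runx2, Dlx5 and the Dlx6 row passed in 0 of 16 alternatives each, at -0.33 to -0.07, -1.14 to -0.57 and -0.998 to -0.63. All 5 were negative in all 16. Partners and activators gave 0 to 3 higher and 0 to 2 lower over the alternatives, restraining factors 1 to 5 higher, upstream genes 0 to 5 higher, osteoblast products 1 to 8 lower and osteocyte products 0 to 2 lower.

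With the replicate block 612 genes were higher and 1055 lower, and Sp7 (adjusted p = 0.0374) and Dlx3 (0.0323) passed. Same-numbered libraries did not deviate together (correlations -0.0956 to 0.00165 over 3 pairs, and 0 of 3 CGG libraries correlated best with their own number). So few pairs cannot exclude a pairing, and whether the numbers pair libraries is not given in the sources used here. Of the named partners, restraining and upstream genes that passed, Wwtr1, Lef1, Smurf1, Bmpr2 and Lrp6 did not pass under the block. Depth limits the Dlx6 row most, with 21 to 63 reads, and 3 libraries a group limit every test.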
